A study of Mus musculus with 2 samples.

Results

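The HoxD cluster and its neighbour Evx2 are 10 homeobox genes in a row on chromosome 2, and all 10 were taken here by name from the authors' annotation of H3K27me3 peaks. They stand among 4987 gene symbols that the annotation joined to a peak. The marked chromatin came from rib chondrocytes of newborn wild-type CD1 mice, isolated with collagenase from the cartilage, cultured overnight in serum-containing medium and otherwise untreated. The DNA precipitated with an antibody against H3K27me3 (ChIP, 1 library) gave 17237574 filtered tags and the input DNA (1 library) 17004082. The antibody tags of both libraries go against their titles, and the titles were followed. With 1 library per group there were no replicates, so every value below is a description of this peak list without a test. A peak value is also a mean over the cells of the culture, so a mark on some of the cells and a weaker mark on all of them cannot be told apart. None of 7 chondrocyte genes looked up as a check of the cell type (Col2a1, Acan, Sox9, Matn1, Comp, Col9a1 and Col11a1) had a peak. Among 21887 protein-coding genes 20.7% were annotated with a peak within 5 kb, so most genes lacked one. The peaks nearest to the 7 genes lay 36.8 to 1310 kb away. Absence of a repressive mark is all that this check can show.

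H3K27me3 is laid down by Polycomb repressive complex 2 and is known for covering Hox genes in cells that keep them silent. Hox genes encode homeodomain transcription factors that give body regions their identity. In each cluster the genes lie in the order in which they act along the body, from low numbers at the front to high numbers towards the tail and the limb ends. HoxD is known above all for limb patterning, where Hoxd9 and Hoxd10 act early and Hoxd11 to Hoxd13 shape the forearm and digits. Evx2 encodes a related homeodomain protein next to Hoxd13 and shares part of the limb control of its neighbours. The cluster is flanked by long spaces poor in genes that hold limb enhancers.

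The whole row carried the mark. A gene counted as marked when the deposited annotation listed it with a peak, which joined peaks within 5 kb of its own Ensembl gene records. All 10 members were marked in this sense, against 20.7% of 21887 protein-coding genes. No boundary between marked and unmarked genes lay inside the row from Evx2 to Hoxd1. From the end of Evx2 to the end of Hoxd1 (GRCm38, chromosome 2, 74652989 to 74765142) the row measured 112.2 kb, of which 107.4 kb (95.8%) lay under peaks. For comparison, peaks covered 1.9% of the autosomes and 2.53% of chromosome 2. Only 4 peaks made up this cover. They are called A to D here, in the order from Evx2 to Hoxd1.

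**Figure D1:**
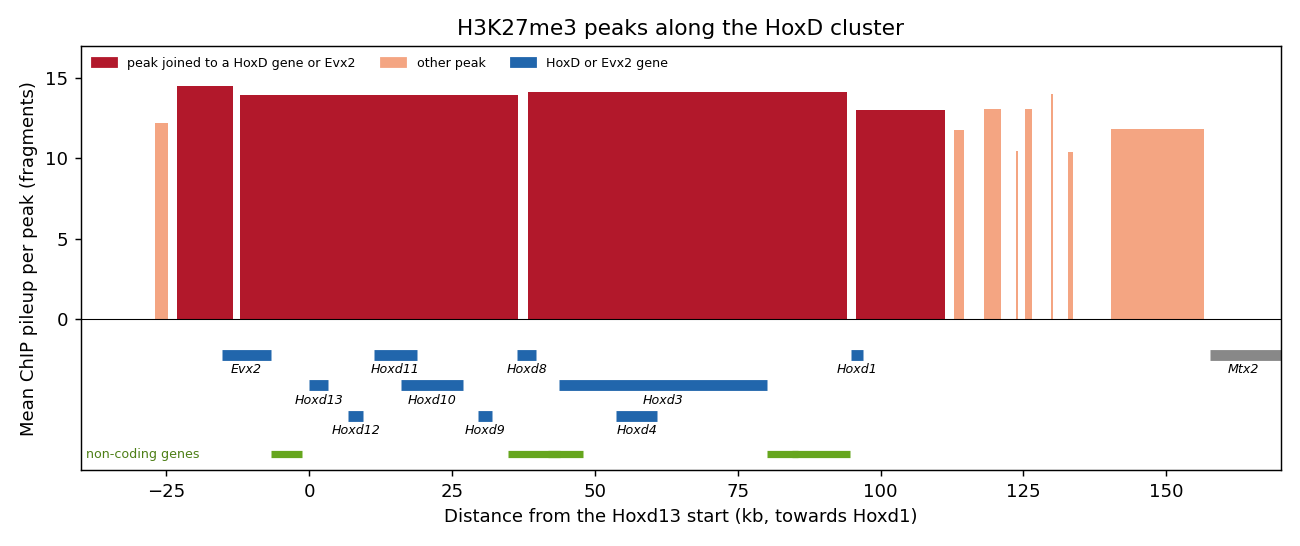
Peaks and genes along the HoxD cluster. The horizontal axis gives the distance in kb from the Hoxd13 start, the height of each block is the mean ChIP pileup of a peak in fragments, and bars below mark genes. Peaks A to D (dark red) reach 13.04 to 14.49 fragments and leave short gaps inside Evx2, over Hoxd8 and at the Hoxd1 start.

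Peak A (chromosome 2, 74645011 to 74654834) was 9.82 kb wide and covered the 3′ part of Evx2. Its pileup, which is the average depth of ChIP fragments along the peak, was 14.49 fragments, and its fold enrichment over input was 3.83, at a mean q-value of 0.00142. Peak B (74656203 to 74704709) was 48.5 kb wide, with 13.94 fragments and a fold enrichment of 3.76, at a q-value of 0.00231. It ran from inside Evx2 over Hoxd13, Hoxd12, Hoxd11, Hoxd10 and Hoxd9 to the first bases of Hoxd8, so 7 of the 10 genes were joined to it. Peak C (74706567 to 74762350) was the widest with 55.8 kb, and had 14.14 fragments and a fold enrichment of 3.77, at a q-value of 0.00198. It took in the 3′ part of Hoxd8 and all of Hoxd3 and Hoxd4, and it ended 630 bp before the Hoxd1 start. Peak D (74763890 to 74779566) was 15.7 kb wide, had 13.04 fragments and a fold enrichment of 3.69, at a q-value of 0.00416, and began inside Hoxd1. Pileup was therefore highest at the Evx2 end and lowest at the Hoxd1 end, over a range of 1.45 fragments that has no replicate error to be set against.

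These peaks were wider and more enriched than most of the list. By width peak C ranked 10, peak B 17, peak D 288 and peak A 685 among 19359 peaks. The median of all peaks was 1.27 kb wide with 11.04 fragments and a fold enrichment of 3.16. A pileup as high as that of peak A was found in 1.02% of all peaks, and one as high as that of peak D in 5.59%. For the fold enrichment these shares were 0.945% at peak A, 1.62% at B, 1.45% at C and 2.52% at D. Wide peaks as a class had higher values than the list as a whole, with a median of 12.61 fragments and a median fold enrichment of 3.5 in the 670 peaks of 10 kb or more, which include B, C and D but not A. Against that class, 14 of the 670 had a fold enrichment as high as that of peak C, 19 as high as that of B and 59 as high as that of D. The input background implied by pileup and fold enrichment was 2.80 to 3.05 fragments at the 4 peaks, against a median of 2.88 in wide peaks.

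**Figure D2:**
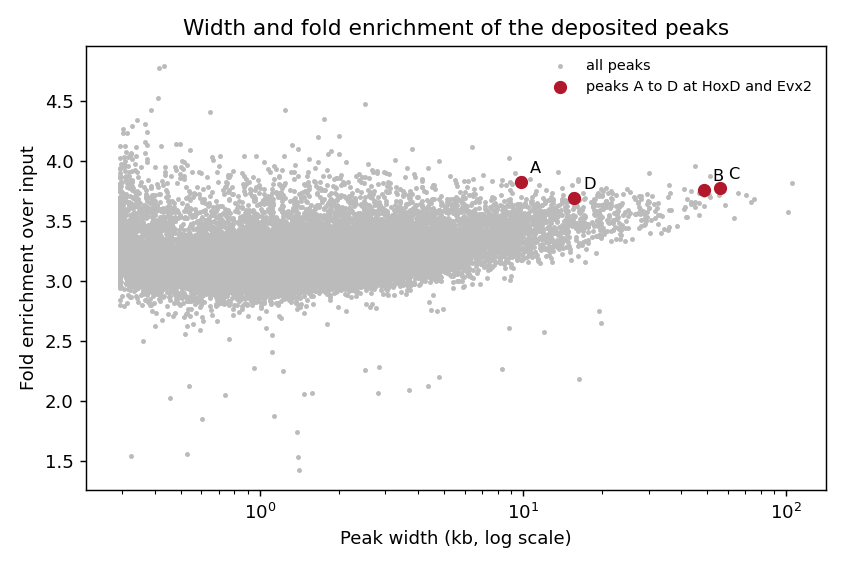
Fold enrichment over input against peak width in kb (log scale) for all 19359 deposited peaks (grey) and for peaks A to D at HoxD and Evx2 (red). Peaks B and C sit at the wide end with fold enrichments of 3.76 and 3.77, and the narrower peak A reaches 3.83.

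Within the row the genes differed in how much of their body was covered. Hoxd13, Hoxd12, Hoxd11, Hoxd10, Hoxd9, Hoxd4 and Hoxd3 lay under a peak from end to end. This held for 7 of 10 members, against 0.8% of all protein-coding genes. The other three were cut by the gaps between the peaks, with 84.0% of Evx2, 57.9% of Hoxd1 and 44.0% of Hoxd8 under peaks. Some part of the body was covered in all 10, against 15.3% of protein-coding genes. The genes covered whole ran from Hoxd9 (2446 bp) to Hoxd3 (36279 bp), and those cut were Hoxd1, the shortest (2163 bp), Hoxd8 (3319 bp) and Evx2 (8532 bp).

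**Figure D3:**
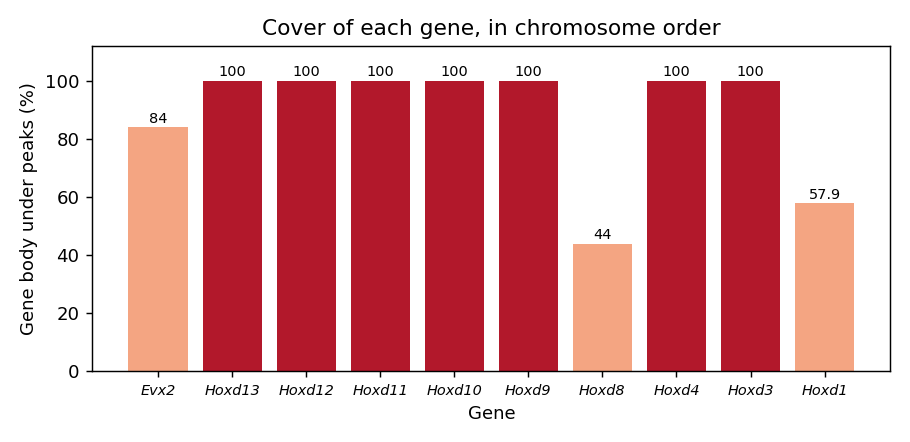
Share of each gene body under peaks (%) for the 10 genes in chromosome order, with gene positions from the RefSeq gene table. Evx2 (84.0%), Hoxd8 (44.0%) and Hoxd1 (57.9%) are the genes cut by gaps, and the other bars stand at 100%.

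At the tail end of the row, Evx2 (74652989 to 74661520, minus strand) was covered by peak B at the start given in the promoter table (74659557). The edge of the peak lay 3354 bp further into the gene. A gap of 1368 bp followed inside the gene, and peak A took over up to and beyond the 3′ end. Hoxd13 (74668225 to 74671603, plus strand), which is required for digits, had its start 12022 bp from the nearest edge of peak B. Hoxd12 (74675013 to 74677705) and Hoxd11 (74679558 to 74687016), which act with it in the distal limb, lay deeper still, and their starts were 18810 and 23355 bp from an edge. Hoxd10 (74684273 to 74695106) and Hoxd9 (74697763 to 74700208) completed the stretch, with starts 12818 and 6946 bp from an edge.

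Hoxd8 was the least covered member. Its start (74704615, plus strand) lay under peak B, but the peak ended 94 bp further on. The next 1857 bp, 56.0% of the gene, were in the gap, and the last 1367 bp lay under peak C. Hoxd8 belongs to the middle of the series of paralogs, the part that acts in the trunk. An antisense non-coding gene, Gm38462, had a start in the same gap.

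Hoxd3 (74711993 to 74748271) and Hoxd4 (74721978 to 74729160), which pattern the neck region of the spine, lay together under peak C, and Hoxd4 was 15.4 kb from the nearest edge. In the deposited annotation these genes share a single record, which spans Hoxd3, while the record at the position of Hoxd4 carries no symbol. Both records were under peak C, so the call for Hoxd4 does not rest on the shared name.

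Hoxd1 (74762980 to 74765142), the member that acts furthest forward, was the only one whose start lay outside the peaks. The gap there measured 1539 bp, and the start lay 630 bp from peak C and 910 bp from peak D. The first 910 bp of the gene (42.1%) were in the gap. Haglr, a long non-coding RNA gene on the opposite strand, has its record end 84 bp before the Hoxd1 start, so 546 bp of that gene fell in the same gap. By cover of the gene start, 9 of 10 members were marked, against 4.66% of the 17492 protein-coding genes whose start was known.

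The 3 gaps were short. They measured 1368, 1857 and 1539 bp, which is 1.16, 1.58 and 1.31 times the shortest gap of the whole list (1177 bp). That shortest gap is 1 bp longer than 4 fragment lengths of the caller (1176 bp), and no shorter interruption appears in the list. Of 19339 gaps between neighbouring peaks, 20.6% were no longer than the longest of the 3. Among these 3987 gaps, 268 (6.72%) held the start of a protein-coding gene. Between peaks of at least 9 kb on both sides there were 81 such gaps, of which 14 (17.3%) held a start. The values within a peak are given only as its mean, so dips inside peaks B and C that the caller bridged are not visible here.

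The promoters of 4 members show the sequence at these places. Shown are the 250 bases before the RefSeq start (GRCm38.p6, chromosome 2, plus strand), with CG dinucleotides in capitals. CG-rich DNA is known to attract Polycomb complexes. Hoxd1 (chr2:74762730-74762979) is the promoter in the gap, Hoxd8 (chr2:74704365-74704614) stands at the edge of peak B, Hoxd13 (chr2:74667975-74668224) is the one richest in CG, and Hoxd4 (chr2:74721728-74721977) is poor in CG and deep inside peak C.
Hoxd1: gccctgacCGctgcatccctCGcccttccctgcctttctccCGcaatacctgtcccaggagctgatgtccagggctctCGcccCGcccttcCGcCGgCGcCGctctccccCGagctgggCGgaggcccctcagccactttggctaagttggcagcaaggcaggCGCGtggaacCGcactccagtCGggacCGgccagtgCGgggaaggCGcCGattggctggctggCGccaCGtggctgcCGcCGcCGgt
Hoxd8: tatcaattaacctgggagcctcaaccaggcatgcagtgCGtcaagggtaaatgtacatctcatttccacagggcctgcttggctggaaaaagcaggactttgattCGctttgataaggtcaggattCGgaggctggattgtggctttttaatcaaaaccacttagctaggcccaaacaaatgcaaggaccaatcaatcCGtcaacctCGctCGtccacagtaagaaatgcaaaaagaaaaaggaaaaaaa
Hoxd13: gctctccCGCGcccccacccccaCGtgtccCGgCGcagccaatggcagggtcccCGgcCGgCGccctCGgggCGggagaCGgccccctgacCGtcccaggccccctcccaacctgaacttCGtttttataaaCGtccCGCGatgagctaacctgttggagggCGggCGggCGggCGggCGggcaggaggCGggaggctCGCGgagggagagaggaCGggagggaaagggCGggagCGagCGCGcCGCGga
Hoxd4: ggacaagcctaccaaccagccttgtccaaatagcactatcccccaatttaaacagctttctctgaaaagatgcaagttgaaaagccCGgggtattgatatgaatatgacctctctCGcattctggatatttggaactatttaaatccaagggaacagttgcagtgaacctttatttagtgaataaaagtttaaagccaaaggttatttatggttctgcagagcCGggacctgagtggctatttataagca

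The Hoxd1 promoter, which had no base under a peak, held 24 CG and 71.6% G and C. The Hoxd13 promoter held 31 CG, the Hoxd8 promoter 6 and the Hoxd4 promoter 3, and each was under a peak over all 250 bases. Over the 11 RefSeq promoters of the members (Hoxd11 has a second one) the count ran from 2 to 31 with a median of 13, against a median of 10 (quartiles 3 and 19) in 21263 promoters of protein-coding genes. As many CG as at Hoxd1 were found in 15.5% of these promoters, and as many as at Hoxd4 in 77.4%. The covered promoters of the row thus included some rich and some poor in CG, and the uncovered one was among the richer. Those covered all lie under peaks B and C, so they are not separate cases. Over all promoters the median was 10 CG in the 906 whose start was under a peak (quartiles 5 and 16). It was also 10 in the 20357 whose start was not (quartiles 3 and 19). Whether CG content bears on cover was not tested. Of motifs searched on both strands, TGATTNAT, a site bound by Hox proteins with their partner Pbx, was found in 1 member promoter (the second of Hoxd11) and in 2.52% of all. TATAAA was found at Evx2, Hoxd13 and Hoxd4 and in 11.6% of all promoters, and GCCAT, the core of the YY1 site, at Hoxd10, Hoxd11 and Hoxd13 and in 30.1% of all. None of these motifs contains another, and a match is only a run of letters.

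The non-coding genes within the row followed their neighbours. Of 6 in the RefSeq table, Gm31790, Hoxd3os1, Mir10b and Gm14424 lay wholly under peaks, and Haglr (96.2%) and Gm38462 (79.5%) were cut by gaps. Mir10b (74726070 to 74726137, plus strand), which lies inside Hoxd4, yields the microRNA miR-10b and was 19.5 kb from the nearest edge of peak C. Its mature sequence is shown with that of miR-10a from the HoxB cluster (chromosome 11, 96317186 to 96317208), since both carry the same seed (bases 2 to 8, in capitals).
mmu-miR-10b-5p: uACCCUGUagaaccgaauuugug
mmu-miR-10a-5p: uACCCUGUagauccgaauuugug

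The miR-10a locus was also under a peak, but only 1.22 kb from its edge.

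The marked stretch ended outside the genes on both sides, and the sides differed. On the Evx2 side peak A reached 7.98 kb beyond the 3′ end of Evx2. After a gap of 1.45 kb came a peak of 2.26 kb, and then 54.1 kb without a peak. On the Hoxd1 side peak D reached 14.4 kb beyond the 3′ end of Hoxd1, followed by 6 small peaks of 0.333 to 3.0 kb, the last of which ended 36.7 kb from Hoxd1. A peak of 16.3 kb with 11.86 fragments and a fold enrichment of 3.32 came next and ended 1.02 kb before Mtx2. All 10 peaks between Lnpk and Mtx2 that were not joined to a member had a lower fold enrichment (3.01 to 3.58) than peaks A to D (3.69 to 3.83). By pileup they were not all lower, since a peak of 333 bp had 13.98 fragments, above B and D, at a q-value of 0.00386, and 2 others had 13.06 and 13.07 fragments, above D. Joined over gaps of up to 5 kb, 11 peaks formed a domain of 160.6 kb (74641303 to 74801868), which ranked 7 by span among 10770 such domains. Joined over gaps of up to 20 kb it spanned 183.5 kb and ranked 39 among 6588.

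The nearest protein-coding gene on either side was free of the mark over its body. Lnpk, which encodes a protein of the endoplasmic reticulum, lies 73.5 kb from Evx2, and Mtx2, which encodes a protein of the mitochondrial outer membrane, lies 60.7 kb from Hoxd1. No base of either was under a peak. The annotation nevertheless names both, Lnpk through a peak of 294 bp in its upstream flank and Mtx2 through the peak of 16.3 kb. Atp5g3, Atf2 and Hnrnpa3, further out, had no peak over the body and none in the annotation. Of the 3 genes on the Hoxd1 side Gm50595 had 14.5% of its body under peaks, although no peak was joined to that symbol.

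The spaces poor in genes carried peaks as well, more of them on the Hoxd1 side. Within 100 kb, 38.1% of the Hoxd1 side and 10.9% of the Evx2 side lay under peaks, and within 500 kb the values were 43.6% and 5.72%. In bins of 50 kb, cover on the Hoxd1 side fell to 19.3% over the Mtx2 start, rose to between 57.4% and 71.9% from 150 to 400 kb, and was 0 between 450 and 600 kb. The Evx2 side had 0 to 15% in bins from 50 to 600 kb and reached 75.3% only in the bin from 650 to 700 kb. In these spaces the median peak was weaker than peaks A to D. Between Mtx2 and Gm50595, however, the highest values were above those of peak D and below those of A, B and C. The 36 peaks between Mtx2 and Gm50595 had fold enrichments of 2.94 to 3.75 with a median of 3.33 and were at most 21.7 kb wide. Their pileup had a median of 11.72 and a highest value of 13.28 fragments. The 16 peaks between Atp5g3 and Lnpk had values of 3.01 to 3.58 with a median of 3.23 and were at most 28.6 kb wide.

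**Figure D4:**
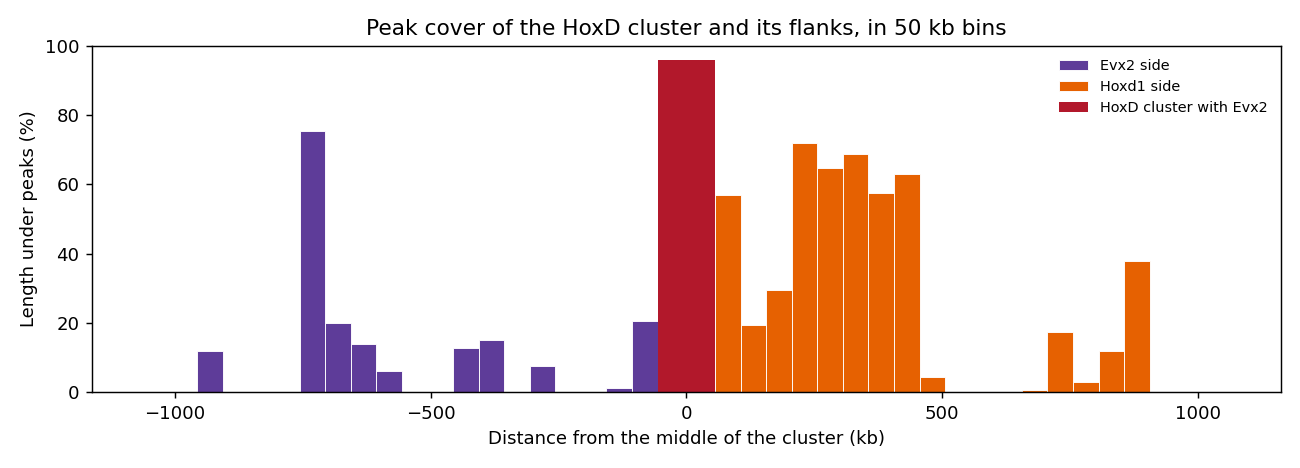
Share of length under peaks (%) in the HoxD cluster with Evx2 (red, 95.8%) and in bins of 50 kb on the Evx2 side (purple) and the Hoxd1 side (orange), against the distance in kb from the middle of the cluster. Cover on the Hoxd1 side stands between 57.4% and 71.9% from 150 to 400 kb beyond the cluster.

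The other Hox clusters hold the genes most like those of HoxD. From Hoxd13 to Hoxd1, 96.5% of the length was covered by 3 peaks. HoxB had 84.1% under 15 peaks, HoxC 56.1% under 2, and HoxA, measured from Hoxa2 to Hoxa13, 36.7% under 1. All 9 Hoxd genes and all 10 Hoxb genes were marked, against 6 of 9 in HoxC and 5 of the 10 from Hoxa2 to Hoxa13. In HoxA and HoxC the mark stopped within the cluster. Hoxa9 to Hoxa13 and Hoxc9 to Hoxc13 were covered over 68.6 to 100% of their bodies, while no base of Hoxa2 to Hoxa7 or of Hoxc4 to Hoxc8 was under a peak. Hoxa7 and Hoxc8 counted as marked only through a peak in the flank, which for Hoxa7 lay 5.53 kb from the gene as RefSeq places it. Among the genes analysed in HoxA, HoxB and HoxC, 11 of 11 numbered 9 to 13 had a peak over the body, against 7 of 18 numbered 1 to 8. All 7 were Hoxb genes, so that 7 of 8 Hoxb genes of low number and 0 of 10 in HoxA and HoxC had a peak over the body. HoxD, with all its genes of low number under a peak in part or whole, was like HoxB here. Hoxd3 and Hoxd4 were covered whole, whereas Hoxa3, Hoxa4 and Hoxc4 had 0%, Hoxb3 77.3% and Hoxb4 4.86%. Hoxb1 and Hoxb8, in contrast, were covered whole, above Hoxd1 (57.9%) and Hoxd8 (44.0%). Closest to the fully covered Hoxd genes were Hoxa10, Hoxa11, Hoxb1, Hoxb8, Hoxb13 and Hoxc10 to Hoxc13, also at 100%. Evx1, the counterpart of Evx2 beside HoxA, was covered whole by a peak of 70.4 kb with a fold enrichment of 3.72.

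**Figure D5:**
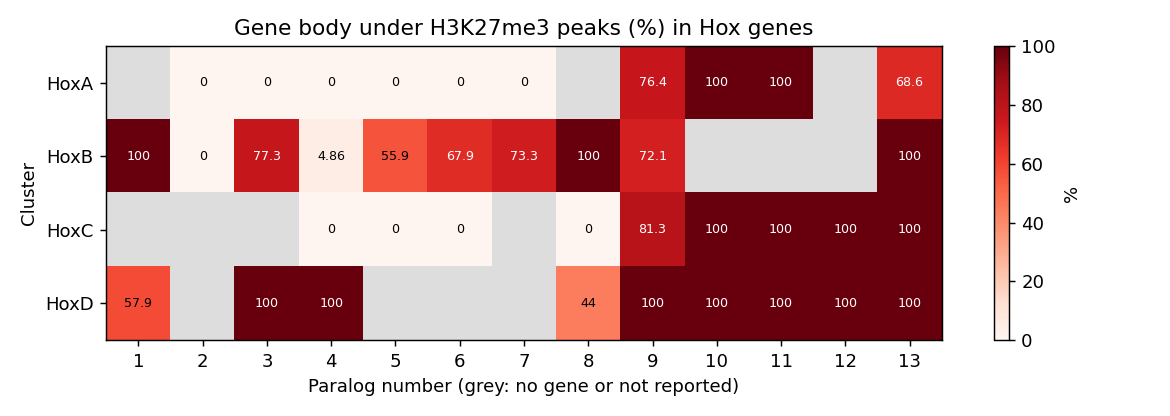
Share of each gene body under peaks (%) for Hox genes, by cluster (rows) and paralog number (columns, grey where the cluster has no such gene or it is not reported). HoxD has values above 0 in every column it fills, while HoxA is at 0 from Hoxa2 to Hoxa7 and HoxC from Hoxc4 to Hoxc8.

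The strength of the mark in the clusters is known here only as means over called peaks. Weighted by peak width, the pileup was 13.92 fragments in HoxD, 15.09 in HoxA, 13.41 in HoxB and 14.27 in HoxC, and the fold enrichment was 3.76, 3.73, 3.64 and 3.79. The pileups thus ran from 13.41 to 15.09, beside quartiles of 12.14 and 13.11 in the peaks of 10 kb or more. The fold enrichments ran from 3.64 to 3.79, beside quartiles of 3.4 and 3.6. A mean can also take in bases outside a cluster. In HoxC 64.9 kb lay under peaks, while its widest peak measured 105.0 kb. Neither these spreads nor that in cover, from 36.7% to 96.5%, was tested, since there is 1 library of each kind. The weakest peak that overlapped the Hoxd genes had a q-value of 0.00416, against 0.00138 in HoxA, 0.0154 in HoxC and 0.0886 in HoxB.

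No peak was joined to the genes analysed for partners of Hox proteins. The TALE homeodomain proteins Pbx, Meis and Pknox bind DNA together with Hox proteins. Of the 8 genes Pbx2, Pbx3, Pbx4, Meis1, Meis2, Meis3, Pknox1 and Pknox2, 0 had a peak within 5 kb, against the 20.7% of protein-coding genes given above. With so few genes a count of 0 is no result about the family, and it was not tested against that share. The nearest peaks lay 6.49 kb (Meis2) to 240.0 kb (Pknox2) away, with a median of 29.6 kb. A mark too weak to be called would not be seen at these genes. The lowest mean pileup of the list (9.86 fragments) is not a fixed limit, since peaks were called against input.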

How the data were processed

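The data were a list of H3K27me3 peaks from 1 ChIP and 1 input library of mouse primary rib chondrocytes. According to the submitters' processing notes, reads were processed with CASAVA 1.8.4 and mapped with Bowtie2 to mm10. Per the file headers the authors took trimmed reads without duplicates into MACS 2.1.0.20140616, which ran in broad mode with a fragment length of 294 bp and a listed q-value cutoff of 0.05. Some peaks have a mean q-value above 0.05, and a separate cutoff for broad regions is not given in the sources used here. The deposited pileup is a coverage signal, averaged along each peak. The deposited fold enrichment is the ratio of this pileup to the local input background, with 1 added to both. For each peak, p-value and q-value were deposited as averaged −log10 values. The authors joined each peak to Ensembl gene records within 5 kb. All 19359 peaks had equal values in both deposited tables.

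Members were found by symbol, with joint symbols split. Gene positions, starts and sequences were taken from RefSeq tables of GRCm38.p6, the same build as mm10. All 10 members and 4929 of 4987 annotated symbols matched. Exons were not analysed here, and some genes of the comparison lists are not reported here. Starts of the members come from the promoter table, and starts in the other Hox clusters from the strand of the deposited records. Cover is the overlap of peaks and genes in bp (Python 3.11.15, pandas 2.3.3), tested on simulated intervals. Depth was 17574613 ChIP and 17369199 input tags before filtering. No p-value was computed. The members, the neighbouring genes (the first 3 protein-coding genes on each side), the Hox paralogs, the cofactor list and the chondrocyte list were chosen with earlier results of these data known. The alternatives were a mean q-value of at most 0.05 or 0.01, a fold enrichment of at least 3.5, a width of at least 1 kb, other rules for joining peaks to genes, and other flank sizes.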

Additional observations from a re-analysis of the deposited data

How the results depend on the processing

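Of 39 recomputed values over 11 results, 29 did not move by more than allowed, 10 did and 0 reversed. The number of marked members (10), the number of their peaks (4) and the covered length (107.4 kb) were equal under all 4 filters on the peak list, and the member count was 9 by cover of the gene start, because Hoxd1 drops out. Cover of the start as deposited was added after seeing the data and also gave 9. Cover of the gene start in the promoter table moved the number of switches between marked and unmarked members from 0 to 1. Joining peaks within 5 kb or 20 kb turned the 4 stretches into 1. Flanks of 50, 200 and 500 kb had 20.5%, 5.45% and 5.72% under peaks on the Evx2 side and 56.9%, 44.4% and 43.6% on the Hoxd1 side, so the order of both sides held at each size. By cover of the start, 3 Hoxa genes were marked. No paired analysis was possible because ChIP and input had 1 library each. No listed peak had a mean pileup below 9.86 fragments, and the part of depth in this lowest value was not tested.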
